A study of Canis lupus familiaris with 25 samples.

Results

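KLK4 and ACPP are secretory genes of the differentiated prostate, and their expression was followed across RNA-Seq samples of the canine prostate. They were chosen by their Ensembl IDs as the study prints them, ENSCAFG00000002905 for KLK4 and ENSCAFG00000006237 for ACPP. They make up 2 of the 32220 gene IDs in each sample's counts. Both were counted in all 25 samples and both passed the filter on low counts.

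The study set fine-needle aspirates drawn under ultrasound guidance (US-FNA) beside prostate tissue collected after death, and asked how far the needle samples show the same expression as tissue. All dogs were male, of several breeds or mixed breed. The 9 tissues without malignancy, numbered from PT-10 up to PT-18, were normal to hyperplastic by histopathology and came from intact dogs aged 1 to 16 years (median 6). The 5 non-malignant aspirates, US-40, US-32, US-15, US-13 and US-7, were normal to hyperplastic by cytology and came from intact dogs aged 4 to 10 years (median 7). The 9 malignant tissues, PT-1 up to PT-9, were prostate carcinomas from dogs aged 8 to 12 years (median 9). Of these dogs, 3 were intact (PT-1, PT-4 and PT-8) and 6 were neutered. The 2 malignant US-FNA samples, US-4 and US-3, came from neutered dogs with carcinoma, aged 9 and 10 years. The labels describe all aspirates as taken during life, but the study repeated the aspiration in a dog right after euthanasia and lists US-3 as that dog's additional aspirate, so US-3 may have been taken after death. Diagnosis therefore overlapped with neutering, which a comparison of intact dogs alone avoids in tissue but not in aspirates, where no malignant sample came from an intact dog. RNA was isolated with the AllPrep Universal kit from tissue and with Qiazol and the miRNeasy Micro kit from US-FNA, so that sample type and RNA isolation cannot be told apart.

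KLK4 encodes a serine protease of the kallikrein family that is secreted by prostate epithelium. ACPP, now named ACP3, encodes prostatic acid phosphatase, an enzyme that luminal cells release into the seminal fluid. KLK2 (ENSCAFG00000002907) served as the partner gene, since the kallikrein known as canine prostate-specific arginine esterase is the main secretory protein of the dog prostate. Genes of this secretory program depend on androgen, and the gland shrinks after neutering. In the dog assembly UU_Cfam_GSD_1.0, KLK4 and KLK2 lie on chromosome 1 with 0 genes lying wholly between them, whereas ACP3 lies on chromosome 23. KLK4 and KLK2 are related in sequence, and the locus LOC611793 overlaps KLK4 in that assembly, so that reads assigned to the wrong gene could not be recognised from the counts. The counting tool reads only a single strand by default and the labels do not say whether the libraries kept the strand, so a count may miss part of a gene's reads.

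Between 4258267 and 6594032 reads per sample fell on genes in non-malignant tissue and between 4455090 and 5932349 in malignant tissue. The non-malignant aspirates had between 3355926 and 4996566 such reads, US-4 had 4052454 and US-3 had 3966984. Since KLK2 reads filled up to 48.2% of a library, expression is given as CPM, the read count scaled to a common library total, with KLK2 left out of that total. On this scale, the totals ranged from 2361751 reads in US-13 to 5932319 reads in PT-7, and a count of 3 corresponded to between 0.506 and 1.27 CPM. Globin genes (HBA1, HBA2, HBD, HBB and HBM), which mark red blood cells, took 0.0245% to 1.99% of the reads in non-malignant US-FNA, 2.98% in US-4 and 3.98% in US-3. They took at most 0.00487% in non-malignant and 0.0142% in malignant tissue.

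KLK4 was abundant in every non-malignant sample and had at most 30 reads in every malignant one. In non-malignant tissue, KLK4 ranged from 220.1 CPM in PT-13 to 583 CPM in PT-14 (median 442, mean 440.2 ± 119, SD, n = 9). In malignant tissue, it ranged from 0.169 CPM in PT-7 to 6.02 CPM in PT-5 (median 2.02, mean 2.08 ± 1.86, SD, n = 9). The highest tumour thus lay below the lowest non-malignant tissue. In malignant tissue, KLK4 rested on 1 to 30 reads per library, and in PT-4 and PT-7 on a single read. For a single read, the exact Poisson interval (95%) was 0.00427 to 0.939 CPM in PT-7 and 0.00549 to 1.21 CPM in PT-4. These intervals cover counting error only.

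In non-malignant US-FNA, KLK4 measured 299 CPM in US-7, 358 CPM in US-13, 293 CPM in US-15, 592 CPM in US-32 and 275 CPM in US-40 (mean 363 ± 131, SD, n = 5). In malignant US-FNA, it measured 1.48 CPM in US-4 (6 reads) and 0.504 CPM in US-3 (2 reads, exact Poisson interval 0.0611 to 1.82 CPM). The study lists no RNA integrity number for US-3, and it kept a malignant aspirate lacking this number because the electropherogram was acceptable. The part of RNA integrity in the values of KLK4 and ACPP was not tested. US-32 was the highest of all 25 samples, and the other 4 non-malignant US-FNA samples lay within the range of non-malignant tissue. Over all samples, the highest malignant value, 6.02 CPM, and the lowest non-malignant value, 220.1 CPM, were 36.6-fold apart, and without PT-5 the gap was 72.0-fold.

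ACPP also differed between the diagnoses, with a narrower gap. In non-malignant tissue, ACPP ranged from 81.2 CPM in PT-11 to 501 CPM in PT-12 (median 179, mean 202 ± 135, SD, n = 9). In malignant tissue, it ranged from 0.899 CPM in PT-1 to 23.7 CPM in PT-8 (median 3.03, mean 5.48 ± 7.09, SD, n = 9), which corresponded to 5 and 129 reads. The intact dog PT-8 held the highest tumour value, and the next one was 6.91 CPM in the neutered dog PT-7.

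Non-malignant US-FNA held 277 CPM of ACPP in US-7, 118 CPM in US-13, 243 CPM in US-15, 207 CPM in US-32 and 422 CPM in US-40 (mean 253 ± 111, SD, n = 5). Malignant US-FNA held 11.1 CPM in US-4 and 1.26 CPM in US-3, from 45 and 5 reads. All 5 non-malignant US-FNA samples fell inside the range of non-malignant tissue, and both malignant ones inside that of malignant tissue. The highest malignant and the lowest non-malignant value of ACPP, 23.7 and 81.2 CPM, were 3.42-fold apart. Without PT-8 the highest malignant value was that of US-4, and the gap was 7.31-fold.

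**Figure D1:**
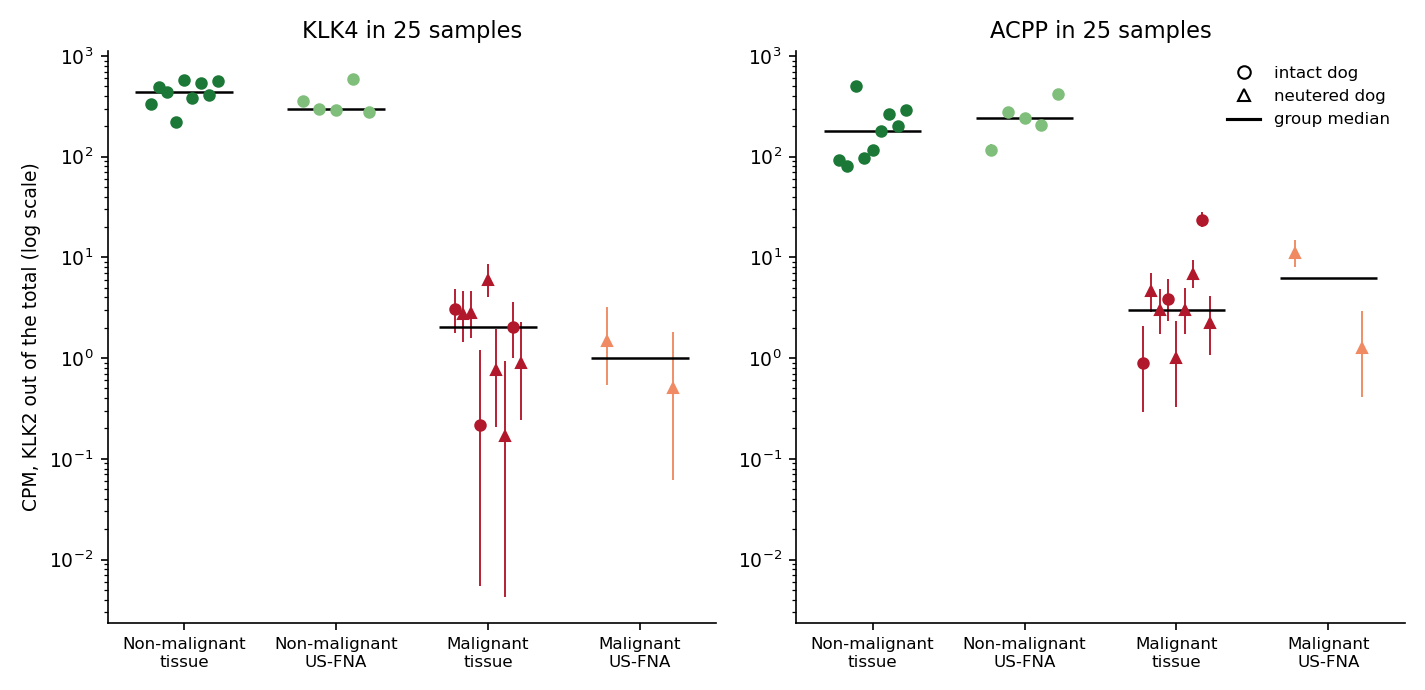
CPM of KLK4 (left) and ACPP (right) in each of the 25 samples, on a log axis, with KLK2 left out of the total. Circles are intact and triangles neutered dogs, vertical lines are exact Poisson intervals (95%) of the counts, and horizontal lines are group medians. Every malignant sample lies below every non-malignant one, with at most 6.02 CPM of KLK4 and 23.7 CPM of ACPP. The share of all genes that separate in this way was not counted.

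Within non-malignant tissue, ACPP varied more than KLK4. The coefficient of variation was 27.0% for KLK4 and 66.8% for ACPP, and leaving out single tissues, which was chosen after seeing the data, gave 19.5% to 28.8% and 49.0% to 73.2%. The highest and the lowest value of ACPP were 6.17-fold apart with PT-12 and 3.56-fold without it. In malignant tissue, the coefficient of variation was 89.6% for KLK4 and 129% for ACPP, and without PT-8 that of ACPP was 61.7%. When KLK2 was kept in the total, the means in non-malignant tissue were 285 ± 61.7 CPM for KLK4 and 126 ± 67.2 CPM for ACPP (SD, n = 9), and the coefficients of variation were 21.7% and 53.3%.

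To test the diagnosis in tissue, malignant was compared with non-malignant tissue by the quasi-likelihood test of edgeR, at a false discovery rate (FDR, Benjamini-Hochberg) under 0.00001. The study applied this threshold to the results of DESeq2, which was run here as an alternative. The log2 fold change of KLK4 was -7.84 (SE 0.55, FDR 6.30e-09), equal to 229-fold lower expression, and 9 of 9 tumours lay below all controls. That of ACPP was -5.29 (SE 0.61, FDR 1.23e-06), equal to 39.3-fold lower expression, again with 9 of 9 tumours below all controls. Without PT-8 it was -6.02, the farthest that leaving out any of the 18 tissues moved it, and the highest value was -4.96 without PT-12. For KLK4, leaving out single tissues gave -8.27 to -7.68, and both genes passed the threshold each time. Both genes passed the threshold, as did 463 of the 15124 genes tested in the lower direction (3.06%). An FDR under 0.05 called 3832 genes in that direction (25.3%). The share of all genes that lay without overlap between groups was not counted, here or in the comparisons below. The lack of overlap is therefore not read as particular to KLK4 and ACPP. Ordered from the most negative log2 fold change, KLK4 stood at position 34 and ACPP at position 157, and the median of all genes was 0.16. That median was -0.15 with DESeq2, which was run without the filter on low counts. In edgeR it was 0.14 with the size factors of DESeq2 and 0.14 without that filter. In bulk samples, fewer secretory cells and less RNA per cell cannot be told apart.

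Only intact dogs were compared next, which takes neutering out of the comparison. KLK4 measured 3.06 CPM in PT-1, 0.217 CPM in PT-4 and 2.02 CPM in PT-8. ACPP measured 0.899, 3.90 and 23.7 CPM in the same tumours. All of these values were below those of every non-malignant tissue. Relative to the 9 non-malignant tissues, the log2 fold change in edgeR was -8.15 for KLK4 (SE 0.69, FDR 1.61e-05) and -4.51 for ACPP (SE 0.95, FDR 0.00272). Both passed an FDR under 0.05, as did 2157 of 15117 genes in the lower direction (14.3%). The difference of KLK4 was therefore as large without the neutered dogs. That of ACPP depended on the tumour, with a log2 fold change of -6.32 without PT-8, -4.22 without PT-4 and -3.95 without PT-1.

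Within malignant tissue, neutered and intact dogs overlapped widely. In the 6 neutered dogs, KLK4 ranged from 0.169 to 6.02 CPM (median 1.81, mean 2.23 ± 2.15, SD), against a mean of 1.77 ± 1.44 CPM (SD, n = 3) in the intact dogs. ACPP ranged from 1.00 to 6.91 CPM in the neutered dogs (median 3.02, mean 3.47 ± 2.05, SD), against a mean of 9.51 ± 12.4 CPM (SD, n = 3) in the intact dogs. The higher mean of ACPP in intact dogs came from PT-8, while PT-1, also intact, had the lowest value of all tumours.

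Neither gene passed an FDR under 0.05 for neutering. The log2 fold change in neutered relative to intact dogs was 0.48 for KLK4 (SE 1.01, FDR 0.988), with a 95% interval from -1.77 to 2.72. For ACPP it was -1.45 (SE 0.84, FDR 0.929), with a 95% interval from -3.33 to 0.43. These intervals hold differences of several-fold in either direction for KLK4, and in ACPP a difference of several-fold toward lower expression in neutered dogs. The direction depended on single dogs, since KLK4 gave -0.15 without PT-5 and ACPP gave 0.32 without PT-8. With edgeR, 0 of 15073 genes (0%) were called in this comparison, 793 had an unadjusted p under 0.05, and DESeq2 called 19 genes.

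The sample type was examined within each diagnosis. In non-malignant samples, the log2 fold change of US-FNA relative to tissue was -0.34 for KLK4 (SE 0.29, FDR 0.441, 95% interval -0.94 to 0.27). For ACPP it was 0.21 (SE 0.38, FDR 0.739, 95% interval -0.59 to 1.00). Leaving out single samples gave -0.66 (without US-32) to -0.21 (without US-40) for KLK4, and 0.0241 (without US-40) to 0.53 (without PT-12) for ACPP. Neither gene was called, and in edgeR 2 of 15056 genes were (0.0133%) at an FDR under 0.00001. An FDR under 0.05 called 2755 genes (18.3%) in edgeR, again without KLK4 and ACPP, and DESeq2 called more genes than edgeR at the stricter threshold. The globin share was higher in each of these US-FNA samples than in any tissue, and its part in the values of KLK4 and ACPP was not tested beyond leaving the globin genes out.

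In malignant samples, the log2 fold change of US-FNA relative to tissue was -0.78 for KLK4 (SE 1.14, FDR 0.793, 95% interval -3.26 to 1.70). For ACPP it was 0.41 (SE 1.08, FDR 0.893, 95% interval -1.94 to 2.76), and it turned to -1.76 without US-4 and rose to 1.204 without US-3 and 1.14 without PT-8. KLK4 gave -1.65 without US-4 and -0.29 without US-3. Neither gene was among the 400 of 15086 genes that edgeR called at an FDR under 0.05 (2.65%). These intervals, with 2 aspirates on one side, hold differences of several-fold in either direction for both genes. Both aspirates came from neutered dogs, while the tissues PT-1, PT-4 and PT-8 came from intact dogs. Sample type was thus partly mixed with neutering, which was not in the fit. The smallest difference that could be detected was not measured in this comparison.

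Malignant US-FNA was then compared with both kinds of non-malignant sample. Both malignant aspirates came from neutered dogs and all non-malignant samples from intact ones, so that diagnosis and neutering cannot be told apart in these comparisons. Relative to non-malignant tissue, KLK4 changed by -8.62 on the log2 scale (SE 0.72, FDR 3.13e-06) and ACPP by -4.91 (SE 0.98, FDR 0.00146). At an FDR under 0.00001, KLK4 was called in edgeR and ACPP was not, against 41 of 15114 genes called in the lower direction (0.271%). The call of KLK4 was near the threshold. With both aspirates in, its FDR over all alternatives was between 4.21e-35 and 1.38e-05, and it was lost without any of the controls PT-12, PT-14, PT-15, PT-16 or PT-18, where the log2 fold change stayed between -8.74 (without PT-15) and -8.55 (without PT-14). DESeq2 called both genes (FDR 4.21e-35 for KLK4 and 6.78e-10 for ACPP). It called several times as many genes as edgeR in this comparison, as given in the closing section. The share called in edgeR is therefore not the background of the DESeq2 calls. Over all alternatives with both aspirates the FDR of ACPP was between 6.78e-10 and 0.00274. The log2 fold changes of KLK4 and ACPP were -9.53 and -7.11 without US-4, and -8.13 and -4.10 without US-3. Each of these fits holds a single malignant aspirate, which is assumed to vary like the other samples, so no call is drawn from them.

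Relative to non-malignant US-FNA, where both sides were needle samples, KLK4 changed by -8.31 on the log2 scale (SE 0.80, FDR 0.000430) and ACPP by -5.11 (SE 0.86, FDR 0.00378). Both passed an FDR under 0.05 in edgeR, as did 1849 of 15073 genes in the lower direction (12.3%). Both aspirates were below all 5 non-malignant ones for each gene. Without US-4 the log2 fold changes were -9.22 and -7.34, and without US-3 they were -7.77 and -4.28, for KLK4 and ACPP respectively. The aspirates of malignant prostates held the largest globin shares, and the values with the globin genes left out stayed on the same side of the threshold.

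Whether the difference between diagnoses was the same in US-FNA and in tissue was tested by the interaction of diagnosis and sample type over all 25 samples. The interaction was -0.45 on the log2 scale for KLK4 (SE 0.94, FDR 0.876, 95% interval -2.39 to 1.48). For ACPP it was 0.20 (SE 1.02, FDR 0.960, 95% interval -1.90 to 2.31). Neither gene passed an FDR under 0.05 in edgeR, which 225 of 15127 genes did (1.49%). Neutering was not in this fit, and it differed between malignant aspirates, all from neutered dogs, and malignant tissues, from both kinds of dog. The signs were not stable, as ACPP gave -1.97 without US-4, -0.13 without PT-12 and -0.16 with library totals only, and KLK4 gave 0.06 without US-3.

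**Figure D2:**
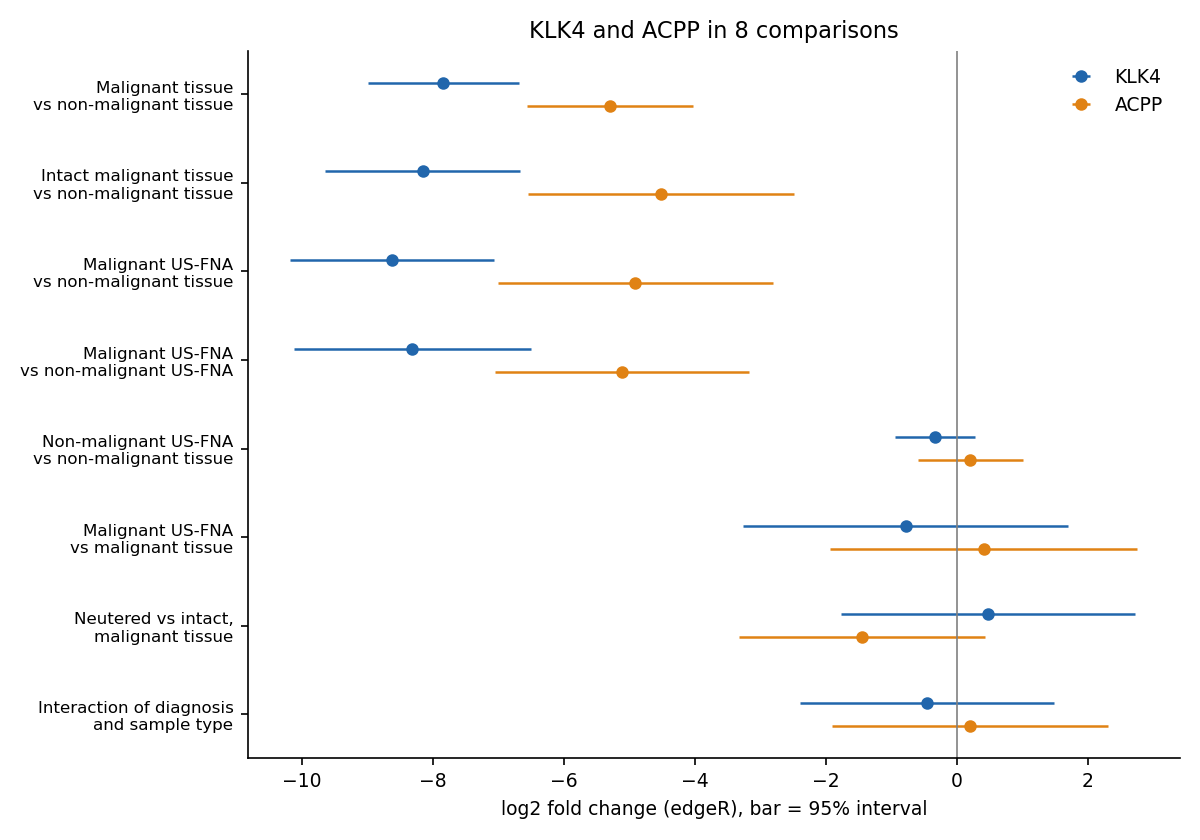
Log2 fold changes of KLK4 (blue) and ACPP (orange) in the 8 comparisons, from edgeR, with 95% intervals as horizontal bars. In the 4 comparisons between diagnoses the intervals lie below 0 (KLK4 -7.84 and ACPP -5.29 in tissue), and in the other 4 they include 0.

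Ordered by mean CPM, KLK4 was highest in non-malignant tissue (440.2), and then came non-malignant aspirates (363), malignant tissue (2.08) and malignant aspirates (0.992). For ACPP the order was non-malignant US-FNA (253), non-malignant tissue (202), malignant US-FNA (6.18) and malignant tissue (5.48). In both orders, the first and the second group did not differ beyond their spread, nor did the third and the fourth. The second and the third group did not overlap, and the share of all genes with such a gap was not counted.

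KLK4 was reduced further than ACPP in malignant tissue. This was measured inside each library as the log2 ratio of the counts of both genes after adding 1 to each, which does not depend on the library total. In non-malignant tissue, the ratio of KLK4 to ACPP ranged from -0.18 in PT-12 to 2.60 in PT-11 (mean 1.32 ± 0.83, SD, n = 9). In malignant tissue, it ranged from -4.39 in PT-7 to 2.37 in PT-5 (mean -1.20 ± 2.28, SD, n = 9). Since the length of each gene enters every library alike, only the change of the ratio is of use, and it was -2.52 (exact two-sided permutation test, p = 0.00749, adjusted p = 0.0225 over the 9 ratio tests). The groups overlapped, since PT-1, PT-3 and PT-5 lay within the range of non-malignant tissue. In the 2 malignant US-FNA samples the ratio was -2.72 in US-4 and -1.0 in US-3.

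Relative to KLK2, both genes took a larger share in tumours. KLK2 reads fell from between 667928 and 3176439 per library in non-malignant tissue to between 3 and 2928 in malignant tissue. The log2 ratio of KLK4 to KLK2 rose from -10.14 ± 0.62 in non-malignant to -2.62 ± 4.01 in malignant tissue (SD, n = 9 each), a difference of 7.52 (exact two-sided permutation test, p = 8.23e-05, adjusted p = 0.000370). It was higher in 8 of 9 tumours than in all non-malignant tissues. The exception was PT-9, the tumour with the most KLK2, which had 4 KLK4 reads beside 2928 KLK2 reads and a ratio of -9.19, below the -8.83 of PT-17. Without PT-9 the difference was 8.34.

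The log2 ratio of ACPP to KLK2 rose from -11.46 ± 0.83 to -1.42 ± 3.15 (SD, n = 9 each), a difference of 10.04 (exact two-sided permutation test, p = 4.11e-05, which is the lowest value possible with 9 and 9 samples, adjusted p = 0.000370). Here all 9 tumours, PT-9 included, lay above all non-malignant tissues. The ratios in tumours rest on few reads, and their SD was several times that of non-malignant tissue.

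Sample type and neutering did not move the ratios past an adjusted p of 0.05. Between non-malignant US-FNA and tissue, the ratio to KLK2 differed by -0.62 for KLK4 (exact two-sided permutation test, p = 0.102, adjusted p = 0.229) and by 0.12 for ACPP (p = 0.766, adjusted p = 0.857, exact). Between neutered and intact dogs with malignant tissue, it differed by -0.66 for KLK4 (p = 0.857 and adjusted p = 0.857, exact) and by -1.40 for ACPP (p = 0.595, adjusted p = 0.857, exact). The ratio of KLK4 to ACPP differed by -0.74 between non-malignant US-FNA and tissue (exact p = 0.158, adjusted p = 0.285) and by 0.75 between neutered and intact dogs (exact p = 0.714, adjusted p = 0.857). With 6 against 3 dogs, the smallest p that the exact test can give is 0.0119. Leaving out single samples turned the sign of some differences. For neutering, the ratio of KLK4 to KLK2 ranged from -2.80 to 1.52 and that of KLK4 to ACPP from -0.12 to 2.39. The ratio of ACPP to KLK2 ranged from -0.0543 to 0.239 between sample types. The other differences of this paragraph kept their sign.

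**Figure D3:**
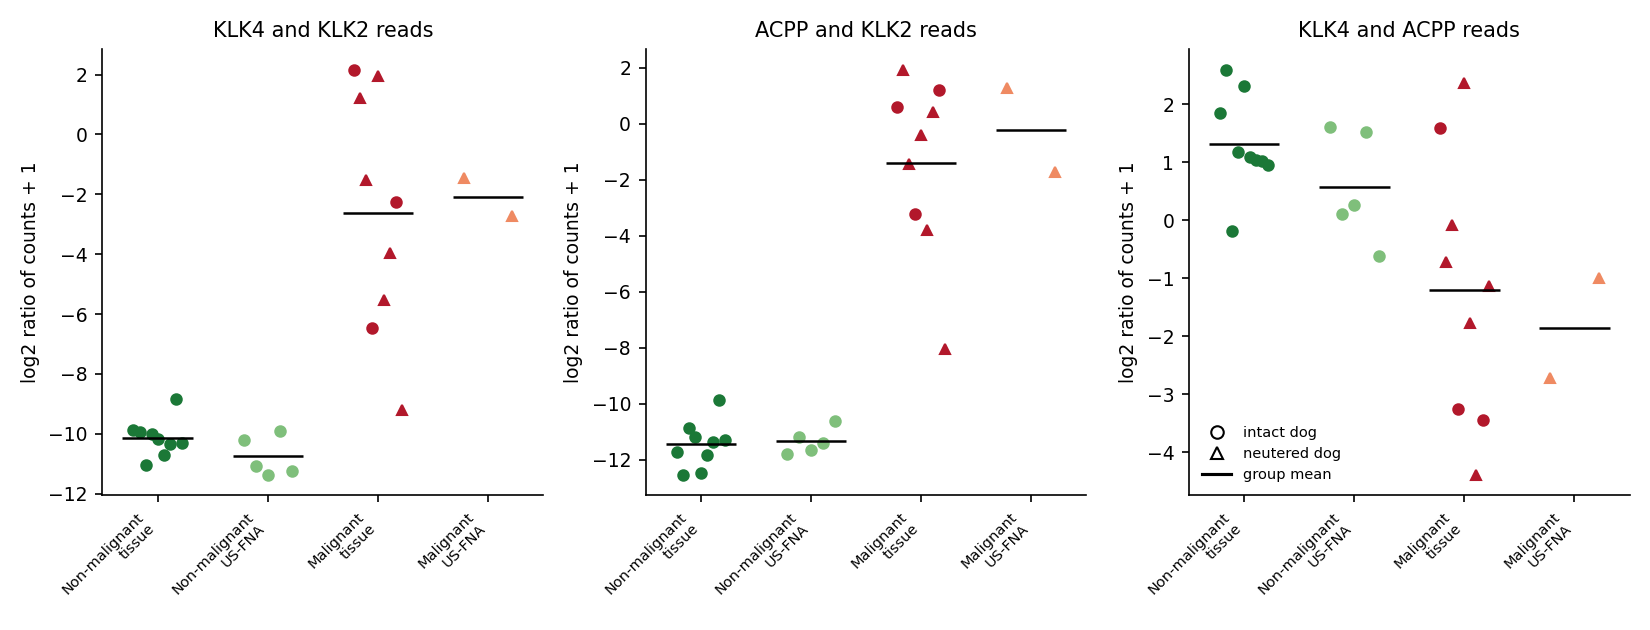
Log2 ratios of read counts within each library, after adding 1, for KLK4 to KLK2, ACPP to KLK2 and KLK4 to ACPP; circles are intact dogs, triangles are neutered dogs and lines are group means. The ratios to KLK2 rose by 7.52 and 10.04 from non-malignant to malignant tissue, and the ratio of KLK4 to ACPP changed by -2.52.

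Covariation with KLK2 was examined within a diagnosis, since the diagnoses form separate clusters. Of 13 relations, including those with age, none passed an adjusted p of 0.05 with all samples in. All values share a library total, here without KLK2. Among the 9 non-malignant tissues, KLK4 and KLK2 gave a Pearson's r of 0.673 (exact permutation p = 0.0416, adjusted p = 0.358) and a Spearman's rho of 0.633 (exact p = 0.0760, adjusted p = 0.258). Without PT-17 and PT-13, the samples farthest from the median of KLK2, r was 0.577. With KLK2 kept in the total and all 9 tissues in, r was 0.180 (exact permutation p = 0.647), so the relation depended on whether KLK2 was in the total. In the 14 non-malignant samples, centred within sample type, r was 0.458 (permutation p = 0.113, adjusted p = 0.358) and rho was 0.446 (permutation p = 0.119, adjusted p = 0.258). It fell to 0.168 without PT-17 and PT-13.

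ACPP and KLK2 gave an r of 0.536 (exact permutation p = 0.138, adjusted p = 0.358) and a rho of 0.667 (exact p = 0.0589, adjusted p = 0.258) in the 9 non-malignant tissues. In the 14 non-malignant samples, r was 0.555 (permutation p = 0.0663, adjusted p = 0.358) and rho was 0.609 (permutation p = 0.0293, adjusted p = 0.258). PT-17 stood apart with the lowest KLK2 of this group, 186035 CPM, and an ACPP above the group's median of 179 CPM. Without PT-17 and PT-13, r was 0.814 in the 9 tissues (exact permutation p = 0.0196, adjusted p = 0.128) and 0.805 in the 14 samples (permutation p = 0.00283, adjusted p = 0.0368). With KLK2 kept in the total and no sample left out, r was 0.261 in the 9 tissues and 0.306 in the 14 samples.

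Among the 9 malignant tissues, tumours with more KLK2 tended to hold fewer KLK4 reads, but the relation did not pass the test. KLK4 and KLK2 gave an r of -0.561 (exact permutation p = 0.116, adjusted p = 0.358) and a rho of -0.583 (exact p = 0.108, adjusted p = 0.258). Without PT-9 and PT-1, r was -0.644. PT-9, PT-6 and PT-4, with 658, 44.0 and 38.4 CPM of KLK2, had at most 0.898 CPM of KLK4, and PT-5 had 6.02 CPM of KLK4 and 1.40 CPM of KLK2. PT-7 departed from this order, with the lowest KLK4 of all tumours, 0.169 CPM from a single read, beside 5.06 CPM of KLK2, which is below the group's median of 8.47 CPM. ACPP and KLK2 gave an r of 0.120 (exact permutation p = 0.747, adjusted p = 0.810) and a rho of 0.183 (exact p = 0.644, adjusted p = 0.882), and r was 0.176 without PT-9 and PT-1.

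**Figure D4:**
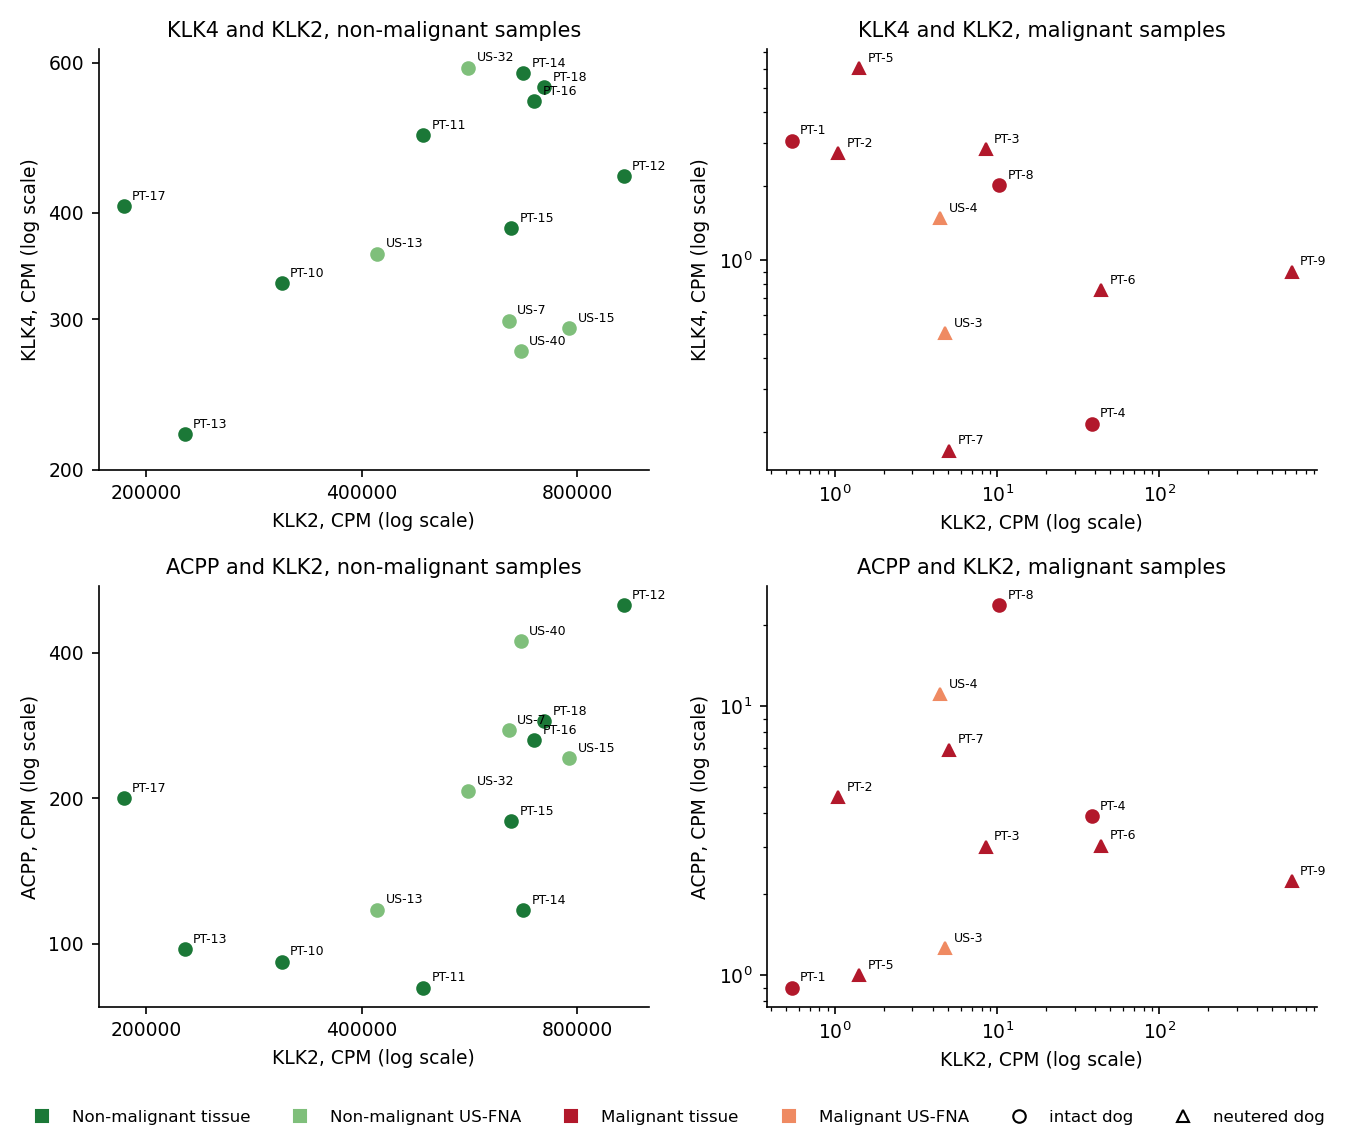
KLK4 (top) and ACPP (bottom) against KLK2 in non-malignant (left) and malignant samples (right), all in CPM with KLK2 left out of the total, on log axes that differ between panels. Labels name the samples; in tumours the highest KLK4 value, 6.02 CPM in PT-5, stands beside 1.40 CPM of KLK2, PT-9, with 658 CPM of KLK2, has 0.898 CPM of KLK4, and PT-7, with 5.06 CPM of KLK2, has the lowest KLK4, 0.169 CPM.

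The genes did not track each other closely within a diagnosis. KLK4 and ACPP gave an r of 0.377 in the 9 non-malignant tissues (exact permutation p = 0.326, adjusted p = 0.641), with a rho of 0.350 (exact p = 0.359, adjusted p = 0.666), and r was 0.644 without PT-12 and PT-11. In the 9 malignant tissues r was -0.350 (exact permutation p = 0.366, adjusted p = 0.641), with a rho of -0.617 (exact p = 0.0857, adjusted p = 0.258), and r was -0.683 without PT-8 and PT-1. In the 14 non-malignant samples r was 0.150 (permutation p = 0.626, adjusted p = 0.798) and rho was 0.0725 (permutation p = 0.814, adjusted p = 0.882). It was 0.241 without PT-11 and PT-12, and -0.178 with KLK2 kept in the total.

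Age showed no relation past the test in the intact dogs without malignancy, the youngest of which, PT-18 at 1 year, held 561 CPM of KLK4 and 289 CPM of ACPP. The oldest, PT-10 at 16 years, held 331 and 91.9 CPM. In the 9 tissues, r with age was -0.0418 for KLK4 (exact permutation p = 0.915, adjusted p = 0.915) and -0.270 for ACPP (exact permutation p = 0.481, adjusted p = 0.695), with rho of -0.0339 (exact p = 0.945) and -0.119 (exact p = 0.773). Without PT-10 and PT-14, these r values were -0.0581 and 0.309. In the 14 samples, r was -0.129 for KLK4 (permutation p = 0.675, adjusted p = 0.798) and -0.276 for ACPP (permutation p = 0.394, adjusted p = 0.641), with rho of -0.223 (permutation p = 0.456) and -0.0949 (permutation p = 0.761). Without PT-10 and PT-14, they were -0.219 and 0.110.

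Across all 25 samples, the gene with the pattern most like KLK4 was ENSCAFG00000009107, with a Pearson's r of 0.983 on log2 CPM among 15126 genes. It measured 577 ± 298 CPM in non-malignant tissue (SD, n = 9) and 0.703 ± 0.612 CPM in malignant tissue (SD, n = 9). ACPP stood at position 187 in this order (r = 0.914), and KLK2 would stand at position 82 (r = 0.942). The gene most like ACPP was ENSCAFG00000004287 (r = 0.965), with 15.1 ± 7.27 CPM in non-malignant and 0.169 ± 0.377 CPM in malignant tissue (SD, n = 9 each). In that order KLK4 stood at position 135 and KLK2 would stand at position 75 (r = 0.930). These values describe the split between the diagnoses, which all of these genes share, and 264 genes had an r above 0.9 with KLK4 and 194 with ACPP. Within the 9 non-malignant tissues, ACPP stood at position 1663 of 14948 genes in the order of KLK4 (r = 0.377), and KLK4 at position 4037 in that of ACPP. Within the 9 malignant tissues, ACPP stood at position 12924 of 15072 genes in the order of KLK4 (r = -0.35), and KLK4 at position 12381 in that of ACPP. Neither ENSCAFG00000009107 nor ENSCAFG00000004287 could be matched to a gene name here.

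PMEPA1 (ENSCAFG00000031382), another gene that androgen induces and whose product dampens TGF-beta signalling, showed the opposite pattern. It ranged from 4.10 to 19.6 CPM in non-malignant tissue (median 9.79) and from 93.7 to 435 CPM in malignant tissue (median 167). It measured 3.29 to 28.4 CPM in non-malignant US-FNA, and 104 and 456 CPM in the malignant aspirates. The log2 fold change of PMEPA1 in malignant relative to non-malignant tissue was 4.22 (SE 0.36, edgeR FDR 6.01e-08), and in intact dogs alone it was 3.77 (SE 0.35, edgeR FDR 2.36e-05). Between neutered and intact dogs with malignant tissue it was 0.62 (SE 0.51, edgeR FDR 0.948). Further genes of the androgen program and markers of cell types could not be looked up, since the IDs are not paired with symbols here, so the share of luminal cells in each sample was not tested.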

How the data were processed

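RNA was isolated from 18 tissue and 7 US-FNA samples and sequenced as single reads. The authors trimmed the reads with Trimmomatic 0.32, mapped them to CanFam3.1 with TopHat2 and counted them per Ensembl gene with htseq-count at default settings. They deposited raw read counts, without normalisation, for 32220 IDs per sample. Alignments on no gene made up 58.8% to 70.3% of each file's tally and were left out. Replicates differed beyond sampling noise (smallest chi-square per degree of freedom 15.2), and samples were treated as independent. Counting at default settings is specific to the strand. The study names the NEBNext Ultra RNA kit for the libraries but does not state whether they kept the strand. The dog of US-3 also gave tissue according to the study, but which sample this was is not stated.

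The members, lists and partner genes were chosen with earlier results of these data known. The KLK2 row was removed before library totals, TMM normalisation and filtering (filterByExpr, minimum count 10, minimum total 15, 4 groups), which left 15127 genes. Each comparison was a quasi-likelihood fit in edgeR 4.0.16 (R 4.3.3) of its groups alone, with Benjamini-Hochberg adjustment over all genes tested. Genes were called at an FDR under 0.00001 where all samples of a group were compared with non-malignant tissue, as in the study with DESeq2, and under 0.05 in the other comparisons, that of intact dogs included. SE was derived from the log2 fold change and the square root of F. DESeq2 1.42.0, other normalisations, filters and sample sets were alternatives. DESeq2 was run without the filter on low counts, on all genes with any read in the samples compared. Read ratios used a pseudocount of 1. Correlations used log2 CPM with a prior count of 2, exact permutation for 9 samples and 100000 permutations within sample type for 14. Named genes were KLK4, ACPP, KLK2, PMEPA1, 5 globin genes and the gene most correlated with each member. The name table matched 0 of the IDs. Of the fits, those of malignant tissue, non-malignant US-FNA and neutering were checked on simulated data, as were the permutation tests. Other steps ran in Python 3.11.15 with SciPy 1.17.1, NumPy 2.4.6 and pandas 2.3.3, and plots were drawn with matplotlib 3.10.9.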

Additional observations from a re-analysis of the deposited data

Results flagged for a closer look

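Samples far from the rest of their group were sought in 28 combinations of a measure and a group by Dixon's test at the 95% level. It flagged 7, all of them high CPM values. Chance gives about 1 in 20 only for normally distributed values and independent tests. CPM was tested without a log, and the 6 neutered tumours were also part of all tumours, so the 7 are not read as an excess over chance. In malignant tissue, KLK4 reached 6.02 CPM in PT-5 and the next tumour had 3.06 CPM. ACPP reached 23.7 CPM in PT-8, against 6.91 CPM in the next tumour. KLK2 reached 658 CPM in PT-9 against 44.0 CPM in PT-6, both among all tumours and among the 6 neutered dogs. In non-malignant tissue, ACPP reached 501 CPM in PT-12, with 289 CPM in the next sample. In non-malignant US-FNA, KLK4 reached 592 CPM in US-32, with 358 CPM in the next sample, and PMEPA1 reached 28.4 CPM in US-13, with 9.08 CPM in the next. The tumours named were different dogs for each gene, 1 intact (PT-8) and 2 neutered (PT-5 and PT-9). The cause of these values was not tested.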

How the results depend on the processing

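Of the alternative log2 fold changes of KLK4 and ACPP, 307 kept their direction and their side of the threshold, 7 reversed, 7 became weaker and 1 stronger. Of the ratios, 37 kept both and 5 reversed, and of the correlations, 50 kept both, 4 reversed and 1 became stronger. In malignant relative to non-malignant tissue, KLK4 lay between -8.27 and -7.68 and ACPP between -6.02 and -4.96 over 25 alternatives each, and both kept their calls. DESeq2, run without the filter on low counts, moved the median of all genes from 0.16 to -0.15 in malignant relative to non-malignant tissue. The 2 genes kept their direction there. Library totals without TMM moved that median in malignant US-FNA, from 0.06 to -0.12 relative to non-malignant tissue, from 0.09 to -0.12 relative to non-malignant US-FNA and from -0.09 to -0.35 relative to malignant tissue, and from -0.05 to -0.37 for the interaction.

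Leaving out single samples moved the small groups most. Without US-4 or US-3, the lone malignant aspirate is assumed to vary like the other samples, so the call of KLK4 missed there was not used. In malignant US-FNA relative to non-malignant tissue, KLK4 ranged from -9.53 without US-4 to -8.13 without US-3 and missed the threshold without PT-12 (-8.61), PT-14 (-8.55), PT-15 (-8.74), PT-16 (-8.68) or PT-18 (-8.56), and PMEPA1 from 3.47 to 5.51. Relative to malignant tissue, ACPP ranged from -1.76 to 1.204 and PMEPA1 from -0.69 to 1.29. The interaction ranged from -1.32 to 0.0620 for KLK4, from -1.97 to 1.02 for ACPP (-0.13 without PT-12) and from -0.64 to 1.60 for PMEPA1, and with library totals only it was -0.16 for ACPP. For neutering, KLK4 ranged from -0.15 to 0.95 and ACPP from -2.01 to 0.32. For non-malignant US-FNA, PMEPA1 ranged from -0.96 to 0.18, with 0.12 without US-32, 0.0818 without US-40 and 0.13 without PT-10. The ratio of ACPP to KLK2 ranged from -0.0543 to 0.239 between non-malignant US-FNA and tissue. For neutering, the ratio of KLK4 to KLK2 ranged from -2.80 to 1.52 and that of KLK4 to ACPP from -0.12 to 2.39, with -0.0287 without PT-4. Leaving out PT-9, and leaving out single samples for the spread and the gap between diagnoses, were choices made after seeing the data. So was leaving out single tissues, except for the tumours in the comparisons of neutering and of intact dogs. Without PT-9, the ratio of KLK4 to KLK2 for neutering was 0.62. Without PT-6, which shares the breed, age and neutering labels of US-3, malignant US-FNA relative to malignant tissue gave -0.89 for KLK4 and 0.33 for ACPP. The labels pair no samples between groups.

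DESeq2 gave -4.89 for ACPP in malignant US-FNA relative to non-malignant tissue (FDR 6.78e-10), now past the threshold. The correlation of KLK4 and ACPP in the 14 non-malignant samples was -0.178 with KLK2 in the total, that of KLK4 and age in the 9 tissues was 0.0415 with effective library sizes, and without the samples farthest on the x axis ACPP and age gave 0.309 and 0.110 and ACPP and KLK2 gave 0.805. The cause was not tested. DESeq2 was run without the filter on low counts, so its numbers of genes called do not refer to the same genes as those of edgeR. Genes called by DESeq2 numbered 3591 against 970 by edgeR in malignant tissue, 449 against 2 in non-malignant US-FNA, 1604 against 189 in malignant US-FNA, 1182 against 400 between malignant US-FNA and malignant tissue, 19 against 0 for neutering and 599 against 225 for the interaction. An FDR under 0.05 called 8783, 2755 and 6322 genes in malignant tissue, non-malignant US-FNA and malignant US-FNA, and an FDR under 0.00001 in edgeR called 0 genes between the diagnoses in US-FNA, between malignant US-FNA and tissue, in intact dogs and for the interaction, where 6262, 2337, 7182 and 2273 genes had an unadjusted p under 0.05.

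Depth limits KLK4 in tumours, where 3 of 11 malignant libraries held fewer than 3 of its reads and none held so few of ACPP. Malignant US-FNA had 2 samples and intact carcinoma dogs 3.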
